A study of Mus musculus with 10 samples.

Results

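Interferon-stimulated genes are the genes that cells switch on when an interferon binds its receptor. The set described here holds 36 such genes, chosen by symbol from a list of well-known antiviral and signalling members. The choice was made with earlier results of these data known. All 36 were present in both deposited tables, which hold 23364 genes each. The samples were epithelial crypts shaken from the distal colon of mice with EDTA, sequenced as poly(A)-selected RNA. Untreated mice gave 3 control samples. Mice given dextran sulfate sodium (DSS), an agent that damages the colon lining and causes colitis, gave 4 samples. Mice given azoxymethane (AOM), a carcinogen, and then DSS gave 3 samples, and the series describes that condition as inflammation-driven cancer. The labels used here state no strain, age, sex, dose or time. They also do not say that each library came from its own animal, so every p-value below rests on sample-to-sample spread that could be technical.

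Type I and type III interferons act through a pair of receptor chains and the kinases Jak1 and Tyk2. These phosphorylate Stat2, which joins Irf9 in a transcription factor complex, and this complex binds the interferon-stimulated response element (ISRE) in promoters. The products sense viral RNA, degrade it, trap virus particles, tag proteins with ISG15 or damp the signal, and intestinal epithelium is known as a tissue that responds strongly to type III interferon. Interferon-gamma acts through a receptor of its own and overlaps in its targets.

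The promoters are shown first because the ISRE is the sequence element that the complex of Stat2 and Irf9 binds. RefSeq promoter windows (GRCm38.p6, 250 bases before to 50 after each gene's start) were matched by symbol for 28 of the 36 genes, and Oas2, Mx1, Mx2, Usp18, Dhx58, Parp9, Parp14 and Rtp4 had no entry. The core of the element, GAAA, any 2 bases and GAAA again, searched on both strands and counted with overlaps, was in the windows of 12 of these 28 genes (42.9%), namely Isg15, Oas3, Oas1a, Bst2, Ifit1, Ifit3, Stat2, Rsad2, Ddx58, Ifih1, Ifitm3 and Eif2ak2. The same core was in the windows of 3.99% of all 27025 genes; counted by window, it was in 37.5% of the 32 windows of these members and in 3.44% of all 32851 windows of that length. The 5 stretches below belong to the genes with a match upstream of the start and the smallest adjusted p in DSS, each read 5′ to 3′ on the gene's strand with the matches in capitals. A match on the other strand reads TTTC, any 2 bases and TTTC.
Oas3, chr5:120777685-120777774, minus strand: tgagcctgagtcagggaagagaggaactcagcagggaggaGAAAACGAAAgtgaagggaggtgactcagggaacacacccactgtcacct
Ifit1, chr19:34640745-34640853, plus strand: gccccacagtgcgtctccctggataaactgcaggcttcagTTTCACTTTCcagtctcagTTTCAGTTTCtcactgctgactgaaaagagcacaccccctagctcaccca
Bst2, chr8:71537547-71537642, minus strand: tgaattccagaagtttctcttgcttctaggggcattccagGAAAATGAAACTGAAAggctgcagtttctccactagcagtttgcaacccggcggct
Isg15, chr4:156200835-156200936, minus strand: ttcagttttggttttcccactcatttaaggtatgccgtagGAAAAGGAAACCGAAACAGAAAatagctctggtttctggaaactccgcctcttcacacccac
Ifit3, chr19:34583333-34583456, plus strand: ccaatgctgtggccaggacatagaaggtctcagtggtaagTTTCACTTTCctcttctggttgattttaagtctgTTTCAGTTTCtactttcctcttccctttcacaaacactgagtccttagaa
Isg15 held 3 overlapping matches, Bst2 held 2 overlapping ones, Ifit1 and Ifit3 held 2 separate ones, and Oas3 held 1. In Ddx58, Ifih1, Ifitm3 and Eif2ak2 the match lay after the start, and those stretches are not printed. A match is a description of letters, and no match says only that the letters are not in the window. Members with a match were found on both sides of the threshold below: Oas1a and Ifih1 passed it in neither comparison.

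The deposited tables hold group means of normalized reads and the authors' DESeq test, and not the libraries. The reads of each library were worked back from the means, printed with 15 digits, and the libraries are lettered within a group from the largest size factor to the smallest; the letters are not the replicate numbers of the labels. The recovered reads cover 85.0% of the mean normalized total in control, 39.4% in DSS and 95.2% in AOM+DSS, and sum over that share to between 4984641 and 23589620 per library. In DSS the highly expressed genes could not be resolved. For 22 of the 36 members 1 combination of reads matched in DSS, for 7 (Ifit1, Oasl1, Irf9, Stat2, Ifih1, Parp9 and Dtx3l) 1 of several lay within 2-fold of the mean and is given as a description only, and for 7 (Oas1a, Oasl2, Irf1, Irf7, Parp14, Trim25 and Samhd1) the DSS libraries are not given. The choice within 2-fold itself keeps the DSS libraries near their mean, so it partly sets whether they lie above the controls. Epithelial markers were high in all groups: the authors' deposited tables give Epcam means of 24719, 28156 and 28957 in control, DSS and AOM+DSS, and called none of 8 epithelial markers in either comparison.

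Some libraries stood apart in markers of other cells. Control b had more of the 9 myeloid markers (1435 normalized reads summed, against 256 and 124 in the other controls) and of the 7 fibroblast markers (1668 against 468 and 395). DSS a had the most Ptprc, the pan-leukocyte marker (4607 against 422 to 1232), and DSS a and b the most myeloid signal (2258 and 2367 against 418 and 440.5). AOM+DSS c had 10324 for the 5 smooth muscle markers against 249 and 199. Myeloid sums were 3097 to 7762 in AOM+DSS, above every control and DSS library. In bulk samples fewer cells of a type and less RNA per cell cannot be told apart.

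Nearly the whole set was higher in both treatments. In the authors' deposited tables all 36 genes had a log2 fold change above 0 in both, ranging from 0.25 to 3.94 in DSS and from 0.22 to 5.78 in AOM+DSS. The median was 1.18 in DSS and 1.41 in AOM+DSS, where the median of all genes tested was 0.02 and 0.04. At an adjusted p under 0.05, 26 of 36 rose in DSS, where 2.61% of all 18099 genes tested were called higher and 1.78% lower. In AOM+DSS 30 of 36 rose, against a background of 5.54% of 18334 genes higher and 3.35% lower. None fell in either. Because the set was chosen with earlier results of these data known, its counts beside the background are a description only. All 26 called in DSS were called in AOM+DSS too. Ifitm1, Ifitm3, Eif2ak2 and Ifi35 passed in AOM+DSS and not in DSS, and Oas1a, Mx1, Irf1, Ifih1, Samhd1 and Sp100 passed in neither. The DSS and AOM+DSS comparisons share the 3 control libraries, so their values stand side by side here and are not independent of each other.

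**Figure D1:**
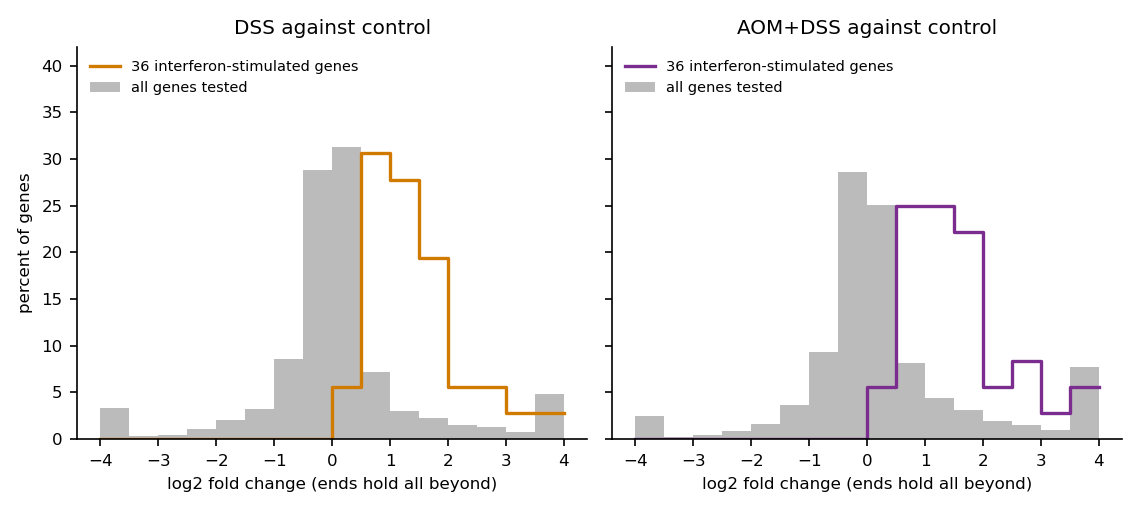
Percent of genes (y axis) by log2 fold change over control in the authors' deposited tables (x axis, bins of 0.5, with values beyond the ends put in the end bins), for all genes tested (grey bars) and the 36 interferon-stimulated genes (line). The line lies wholly above 0 in both panels, while the grey bars centre on 0 with medians of 0.02 and 0.04.

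Every DSS library lay above every control in 21 of the 22 members resolved, the exception being Mx1; this held for 10.6% of all 14082 genes resolved in both groups. Every AOM+DSS library lay above every control in 35 of 36, the exception being Samhd1, against 22.9% of 16253 genes. Summed over the 22 resolved members, the controls held 6889.7, 8967 and 6523 normalized reads, the DSS libraries 22515, 17945, 24916 and 20773, and the AOM+DSS libraries 27369.9, 28741 and 24959. Control b was the highest control for 28 of 36 members, DSS b the lowest DSS library for 15 of 22 and DSS c the highest for 13. A limma fit on log2(normalized reads + 1) over all resolved genes called 18 of 22 members higher in DSS (3.48% of all genes) and 33 of 36 higher in AOM+DSS (12.2% of all genes). Without control b these counts were 19 and 34, without DSS a 16 of 22, and without AOM+DSS c 31 of 36. They were lowest at 12 of 22 in DSS without control a or without control c, and at 27 of 36 in AOM+DSS without control a. The share of all genes called in either direction moved as well. In DSS it was 6.56% with every library, 8.18% without control b and 5.5% without DSS a. It fell to 1.19% without control a and 1.54% without control c. In AOM+DSS it was 19.7% with every library, 27.2% without control b, 27.9% without AOM+DSS c and 3.47% without control a.

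**Figure D2:**
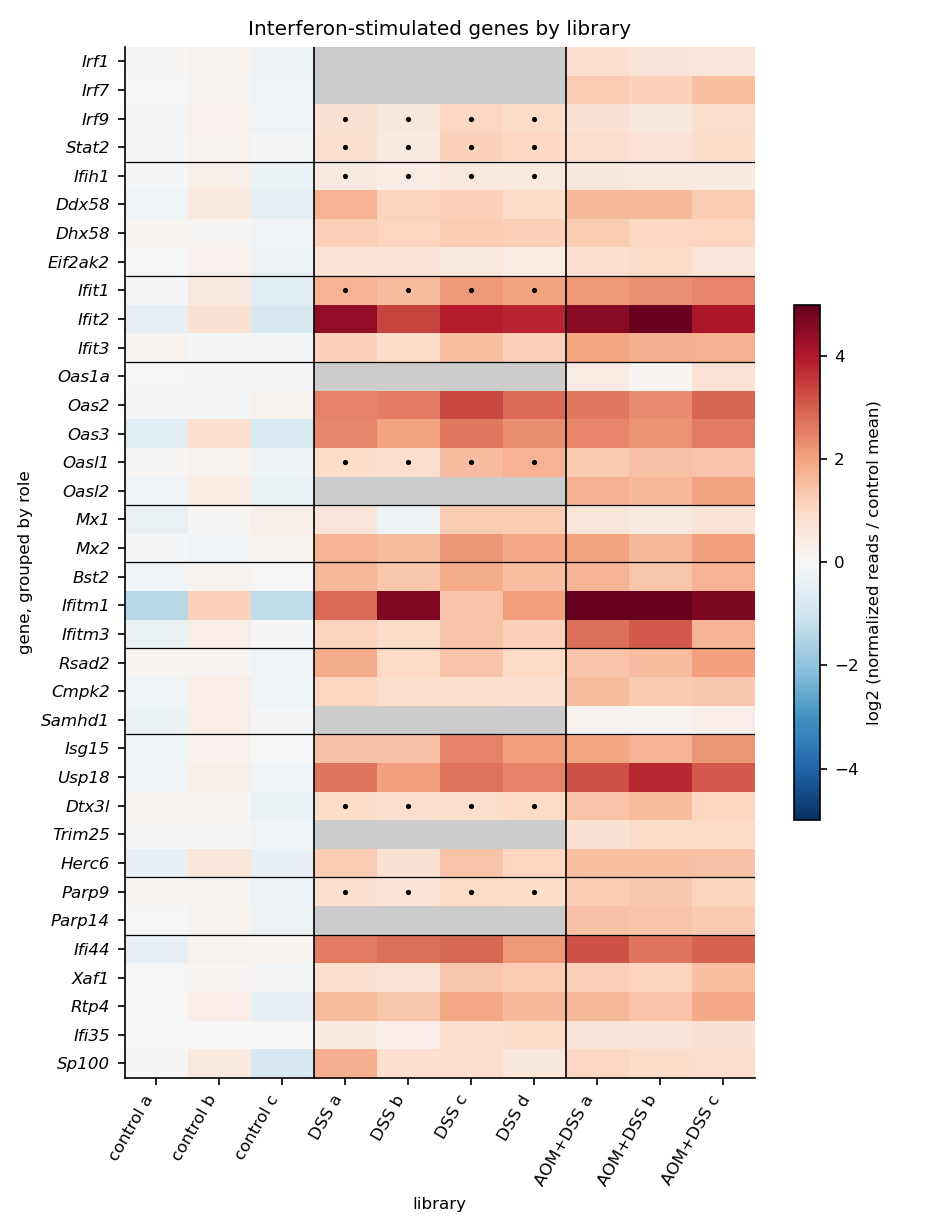
Each row is a gene, grouped by role with lines between the groups, and each column a library. Colour is log2 of normalized reads over the control mean, on a scale cut at 5 in either direction; grey marks DSS libraries that could not be resolved and dots mark DSS values taken within 2-fold of the mean. Ifit2 and Ifitm1 are the darkest rows, and Samhd1 and Oas1a the palest in AOM+DSS.

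Of the 4 factors that induce or carry the signal, 3 rose in DSS and 3 in AOM+DSS, with a median log2 fold change of 0.86 and 0.79 in the authors' deposited tables. Irf7, the transcription factor that amplifies interferon production, had 2298, 2513 and 2010.4 normalized reads in controls a to c and 5410.5, 5105 and 6505 in AOM+DSS, with no overlap. The authors' deposited tables give it a mean of 6987 in DSS, 3.07-fold over control (adjusted p = 0.00136), and a log2 fold change of 1.32 in AOM+DSS (0.00787). Stat2 had 1519.7, 1881 and 1540.1 in controls, about 2881, 2263, 3666 and 3347 in DSS (the combination within 2-fold) and 3026, 2685 and 3091 in AOM+DSS. For Irf9, the DNA-binding partner of Stat2, the controls held 1265, 1560.4 and 1199, DSS about 2297, 1965, 2766 and 2502, and AOM+DSS 2266, 1960.3 and 2491. The AOM+DSS libraries of both genes lay above all controls, and so did the DSS values taken within 2-fold of the mean. Per the authors' deposited tables, the changes were 1.85-fold (adjusted p = 0.00354) and 1.78-fold (0.00324) for Stat2 in DSS and AOM+DSS, and 1.78-fold (0.00764) and 1.67-fold (0.0157) for Irf9. Irf1, an early transcription factor shared with interferon-gamma, was 1.53-fold and 1.63-fold over control in the same deposited tables of the authors and missed the threshold (adjusted p = 0.307 and 0.0559). The limma fit did call Irf1 in AOM+DSS (log2 difference 0.71, adjusted p = 0.0149).

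Among the cytoplasmic sensors of viral RNA, Ddx58 (RIG-I) and Dhx58 (LGP2) rose in both treatments. Ddx58 had 367, 597 and 309 normalized reads in controls, 1433, 919, 979.9 and 809.6 in DSS and 1290.2, 1314 and 1026 in AOM+DSS. Dhx58 was tighter, with 444, 441 and 371 in controls, 957, 873, 1001 and 948 in DSS and 1008, 854 and 884 in AOM+DSS. No treated library of either overlapped the controls. Fold changes in the authors' deposited tables were 2.44 (adjusted p = 0.000123) and 2.85 (1.00e-05) for Ddx58, and 2.26 (6.63e-05) and 2.19 (0.000136) for Dhx58. Eif2ak2 (PKR), the kinase that stops translation on double-stranded RNA, had 1116, 1293 and 912 in controls, 1841, 1795, 1585 and 1418 in DSS and 1927, 2098 and 1662 in AOM+DSS. Both treated groups lay above all controls and overlapped each other, and the authors' deposited tables give 1.5-fold in DSS (adjusted p = 0.0706) and 1.71-fold in AOM+DSS (0.00841). Ifih1 (MDA5) was 1.37-fold and 1.43-fold over control in the authors' deposited tables and passed in neither (adjusted p = 0.308 and 0.128).

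The IFIT proteins, which bind viral RNA ends, included the gene with the largest called fold change in DSS. Ifit2 had 95.6, 219 and 73.1 normalized reads in controls, 2775, 1341, 1987 and 1824 in DSS and 2949, 3998 and 2133 in AOM+DSS. The lowest treated library thus stood far above control b. In the authors' deposited tables Ifit2 was 15.3-fold over control in DSS (adjusted p = 2.02e-13) and 23.4-fold in AOM+DSS (1.31e-16). Ifit1 had 436, 623 and 322 in controls, about 1521, 1342, 2073 and 1869 in DSS and 2047, 2217 and 2489 in AOM+DSS. Ifit3 had 251, 209 and 208, then 501, 419, 632 and 506, then 885, 787 and 761, so that its 3 groups were fully apart. The authors' deposited tables give 3.69-fold (adjusted p = 2.61e-13) and 4.89-fold (4.32e-19) for Ifit1 and 2.31-fold (0.000254) and 3.64-fold (2.77e-10) for Ifit3. The Ifit, Oas, Ifitm, Mx and Sp100 families have close copies in the mouse genome, and the labels do not say how reads matching several places were counted, so the split between copies is uncertain.

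Oligoadenylate synthetases make the second messenger that activates the RNA-degrading enzyme RNase L. Oas3 had 241, 623 and 209 normalized reads in controls, 1887, 1442, 2242 and 1784 in DSS and 1934, 1703 and 2191 in AOM+DSS. Oas2 had 239, 241 and 285, then 1429.9, 1493, 2599 and 1799, then 1581, 1312 and 1929. Both were well above all controls, and DSS and AOM+DSS overlapped. The authors' deposited tables give Oas3 5.14-fold (adjusted p = 6.24e-19) and 5.43-fold (2.37e-19), and Oas2 7.17-fold (6.90e-11) and 6.30-fold (1.09e-09). Oasl2, a related protein, had 1379, 2070.0 and 1224 in controls and 5408, 4739.5 and 6227 in AOM+DSS; the authors' deposited tables put it at 3.19-fold in DSS (adjusted p = 4.72e-09) and 3.50-fold in AOM+DSS (1.17e-10). Oasl1 rose 2.47-fold and 2.65-fold in those tables of the authors. Oas1a did not pass: its controls held 2389.6, 2426 and 2266 and its AOM+DSS libraries 3117, 2519 and 3873, and the authors' deposited tables give 1.74-fold (adjusted p = 0.321) and 1.34-fold (0.659). Per kilobase of exon, Oas1a had the highest control level of the set (1252 normalized reads per kb), against 57.3 for Oas2 and 50.6 for Oas3.

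Of the Mx pair of antiviral GTPases, Mx2 passed the threshold and Mx1 did not. Mx2 had 40.6, 39.5 and 48.7 normalized reads in controls, 141, 126, 199.7 and 161 in DSS and 171, 132 and 180.1 in AOM+DSS, with no overlap. It rose 3.66-fold in DSS (adjusted p = 0.000145) and 3.75-fold in AOM+DSS (6.57e-05) in the authors' deposited tables. Mx1 had 277, 374 and 429 in controls, 543, 306, 857 and 878 in DSS and 555, 487 and 581 in AOM+DSS. DSS b fell within the controls, and in the authors' deposited tables Mx1 was 1.79-fold (adjusted p = 0.477) and 1.5-fold (0.529).

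**Figure D3:**
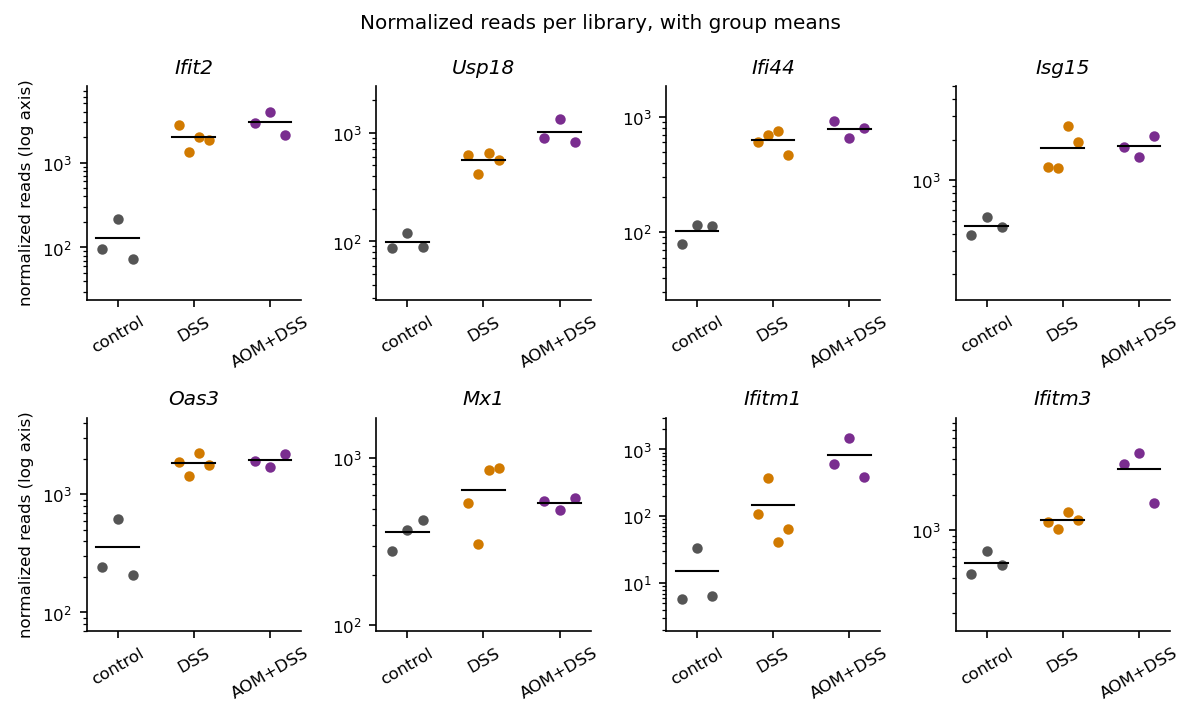
Normalized reads per library on a log axis for 8 genes, with each dot a library (from left to right the libraries a, b, c and, in DSS, d) and a black line at the group mean. Treated libraries lie above all controls in every panel but Mx1, where DSS b lies among them, and Ifitm1 and Ifitm3 have AOM+DSS libraries wholly above DSS.

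Bst2 (tetherin), Ifitm1 and Ifitm3 act at membranes, Bst2 by holding budding virus at the cell surface and the IFITM proteins by hindering entry. Bst2 had 309, 375 and 341 normalized reads in controls, 1072, 864, 1239 and 971 in DSS and 1097, 906 and 1130.2 in AOM+DSS. The 2 treated groups overlapped, and the authors' deposited tables give 3.03-fold (adjusted p = 4.89e-09) and 3.06-fold (7.18e-09). Ifitm3 had 427, 669 and 509 in controls, 1171, 1024, 1436 and 1236 in DSS and 3647, 4463 and 1717 in AOM+DSS. Ifitm1 had 5.79, 33.6 and 6.36 in controls, 107, 381, 41.1 and 65.1 in DSS and 613, 1504 and 387 in AOM+DSS. In both genes the 3 groups did not overlap, and AOM+DSS b was the highest library of all. Ifitm3 was 2.27-fold over control in DSS (adjusted p = 0.318) and 6.12-fold in AOM+DSS (0.000305) in the authors' deposited tables. For Ifitm1 the authors' deposited tables give 9.75-fold in DSS (adjusted p = 0.187) and 54.8-fold in AOM+DSS (0.00621). Where limma was used, Ifitm3 passed in DSS (log2 difference 1.2, adjusted p = 0.00723) and Ifitm1 did not (3.11, 0.0587). AOM+DSS b also had the largest myeloid sum (7762), and DSS b, the highest DSS library for Ifitm1, had the largest in DSS (2367). DSS a had a similar myeloid sum (2258) with Ifitm1 at 107. For Ifitm3, DSS b was the lowest DSS library (1024), and DSS c, with the smallest myeloid sum (418), was the highest (1436). The part of these cells in the result was not tested.

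Of the effectors that act on nucleotides, Rsad2 (viperin), which makes a chain-terminating nucleotide, and its neighbour gene Cmpk2, a nucleotide kinase, rose in both treatments. Rsad2 had 207, 205 and 169 normalized reads in controls, 711, 392, 525 and 392 in DSS and 526, 571 and 814 in AOM+DSS. Cmpk2 had 245, 359 and 244, then 588, 526, 527 and 495, then 840.3, 695 and 716. All treated libraries of both were above the controls, and for Cmpk2 all AOM+DSS libraries were above DSS. Fold changes were 2.61 (adjusted p = 0.00143) and 3.29 (9.84e-05) for Rsad2 and 1.89 (0.00677) and 2.65 (3.82e-06) for Cmpk2 in the authors' deposited tables. Samhd1, which degrades deoxynucleotides, had the smallest fold change of the set. Its controls held 2132, 3356 and 2476 and its AOM+DSS libraries 2985, 2996 and 3315, inside the control range, and the authors' deposited tables give 1.19-fold (adjusted p = 0.695) and 1.17-fold (0.782).

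All 5 genes of the ISG15 and ubiquitin group passed in both comparisons. Usp18, the protease that removes ISG15 and also damps the type I receptor, had 87.9, 120.5 and 89.0 normalized reads in controls, 626, 413, 649 and 554 in DSS and 892, 1338 and 824 in AOM+DSS. The groups were fully apart, and the authors' deposited tables give 5.65-fold (adjusted p = 4.11e-09) and 10.3-fold (2.04e-15). Herc6, the ligase that attaches ISG15 in mice, had 202, 401 and 199, then 649.7, 456, 722 and 558, then 763, 764 and 729. Dtx3l, a ubiquitin ligase that pairs with Parp9, had 1354, 1368 and 986 in controls, about 2322, 2234, 2297 and 2486 in DSS and 3311, 3677 and 2617 in AOM+DSS. Herc6 lay above all controls in every treated library, and Dtx3l did so in AOM+DSS and in the DSS values taken within 2-fold of the mean. They rose 2.23-fold (adjusted p = 0.000361) and 2.81-fold (7.50e-07) for Herc6, and 1.89-fold (0.00104) and 2.59-fold (4.29e-08) for Dtx3l, in the authors' deposited tables. Isg15 itself had 389, 529 and 450.2 in controls, 1252, 1245, 2519 and 1933 in DSS and 1769.8, 1491 and 2133 in AOM+DSS, with the treatments overlapping. The authors' deposited tables put Isg15 at 3.81-fold (adjusted p = 0.000162) and 3.94-fold (4.06e-05), and Trim25, the ligase that acts on RIG-I, at 1.75-fold (0.00346) and 1.88-fold (0.000724).

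The ADP-ribosyltransferases Parp9 and Parp14, which modify proteins of the interferon response, rose in both. Parp9 had 1585, 1626 and 1184 normalized reads in controls, about 2566, 2368, 2933 and 2733 in DSS and 3525, 3755 and 3157 in AOM+DSS. Parp14 had 2229, 2506 and 1862 in controls and 6059, 5965 and 5427 in AOM+DSS. The AOM+DSS libraries of both lay above all controls, as did the DSS values of Parp9 taken within 2-fold of the mean; the DSS libraries of Parp14 are not resolved. The authors' deposited tables give Parp9 1.81-fold (adjusted p = 0.00362) and 2.37-fold (9.30e-07), and Parp14 2.10-fold (4.04e-05) and 2.65-fold (8.87e-09).

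Of the other members, Ifi44, an antiviral protein of the cytoplasm, had 78.2, 116 and 114 normalized reads in controls, 599, 699, 759 and 467 in DSS and 924, 651 and 792 in AOM+DSS. Rtp4, a chaperone-like protein, had 451, 560.0 and 340.0, then 1339, 1187, 1699 and 1388, then 1438, 1204 and 1657. Xaf1, linked to cell death, had 238, 258 and 232, then 425, 392, 629 and 583, then 550.3, 523 and 689. In all of them the treated libraries were above the controls and the treatments overlapped. Ifi44 rose 6.14-fold (adjusted p = 2.32e-19) and 7.68-fold (6.13e-23), Rtp4 3.12-fold (7.45e-10) and 3.18-fold (5.53e-10), and Xaf1 2.09-fold (0.00519) and 2.42-fold (0.000119) in the authors' deposited tables. Ifi35 had very even controls, 767, 751 and 757, with 1062, 942, 1361 and 1419 in DSS and 1198, 1189 and 1288 in AOM+DSS; the authors' deposited tables give 1.58-fold (adjusted p = 0.117) and 1.62-fold (0.0375). Sp100, a nuclear body protein, was 2.16-fold and 1.93-fold over control in the authors' deposited tables and passed in neither (adjusted p = 0.10 and 0.214), with 1404 normalized reads in DSS a against 710.2, 729 and 585 in DSS b, c and d.

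**Figure D4:**
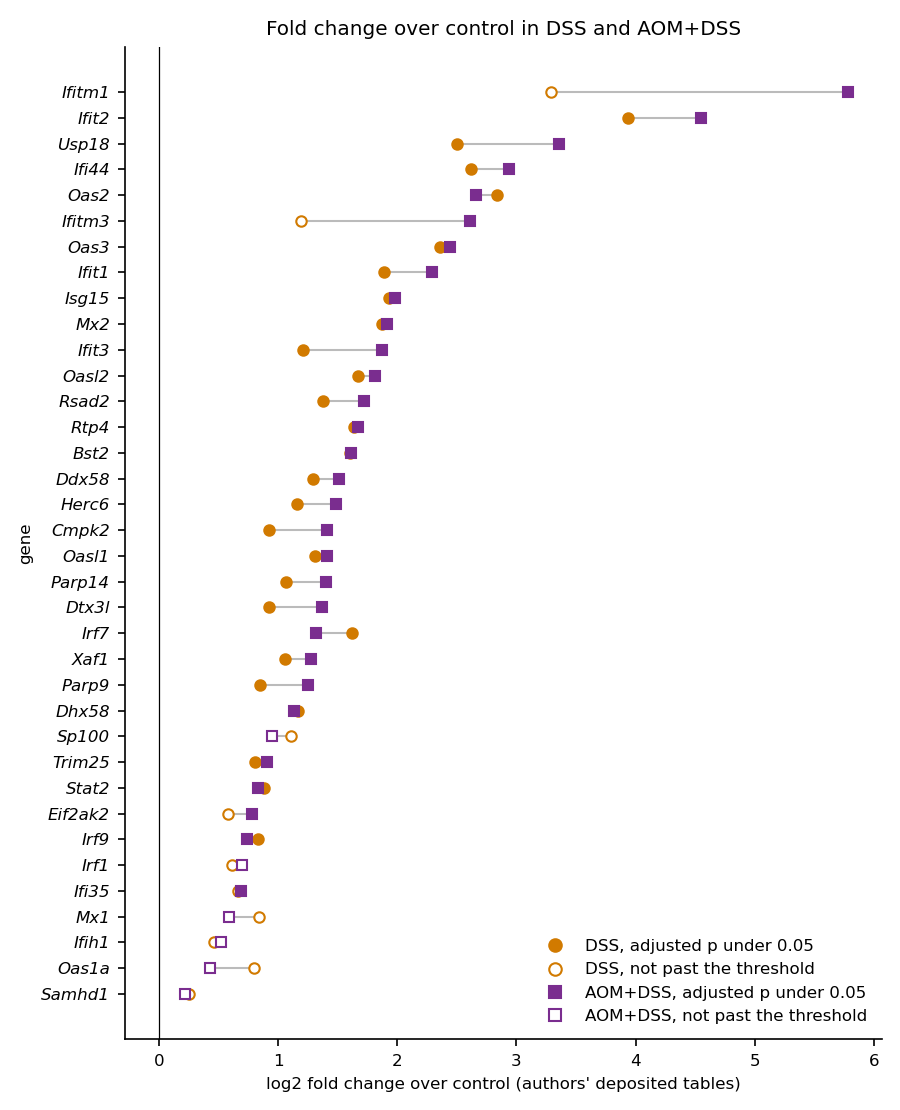
Log2 fold change over control (x axis) from the authors' deposited tables for each gene (y axis, ordered by AOM+DSS), with circles for DSS and squares for AOM+DSS; filled marks passed an adjusted p of 0.05. Ifitm1 and Ifitm3 have the longest gaps between the marks, and the 6 genes with both marks open include Samhd1 at the bottom.

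On the per-kilobase scale the set was uneven in control crypts, with the level given as normalized reads per kb of exon. The highest control levels belonged to Oas1a (1252), Irf1 (1133), Ifitm3 (789), Isg15 (603) and Irf7 (602), and the lowest to Mx2 (11.9), Ifitm1 (13.9), Ifi44 (16.8), Herc6 (28.8) and Ifit2 (32.9). In AOM+DSS the highest level was that of Ifitm3 (4832) and in DSS that of Isg15 (2298). Ifit2 reached 505 in DSS and 771 in AOM+DSS, and Ifitm1 reached 136 and 763.

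None of the 22 members with resolved DSS libraries passed the threshold between AOM+DSS and DSS in the limma fit of these 2 groups. The 14 members without 1 unique combination in DSS were not tested there. The AOM+DSS mean was above the DSS mean in 27 of 36 genes and below it in 9, among them Oas2, Irf7, Mx1 and Oas1a. The limma fit called 0 of 22 members at an adjusted p under 0.05. Over all 14367 genes it called 2.28% higher in AOM+DSS and 0.0766% lower. An unadjusted limma p under 0.05 was found for 6 of 22 members and for 2051 of the 14367 genes. The median limma difference of the 22 was 0.21 on the log2 scale, and that of all 14367 genes was 0.02. The difference was above 0 for 18 of the 22 and for 7623 of the 14367 genes. Every AOM+DSS library lay above every DSS library for Ifit3, Usp18, Ifitm1, Ifitm3, Cmpk2 and Herc6, 6 of 22 against 9.45% of all genes, and none had the reverse. The differences with their SE were 2.78 ± 0.73 for Ifitm1 (limma adjusted p = 0.106), 1.33 ± 0.29 for Ifitm3 (0.0587), 0.85 ± 0.22 for Usp18 (0.0999), 0.67 ± 0.16 for Ifit3 (0.0771) and 0.49 ± 0.13 for Cmpk2 (0.112). Herc6 had the smallest difference of these genes, 0.35 ± 0.17 (limma adjusted p = 0.397). These calls turned on the libraries and groups in the fit. Without DSS b limma called Ifitm1 (3.41, adjusted p = 0.0333), and without AOM+DSS c it called Ifitm3 (1.74, 0.00216). Beside these, 1.28% and 4.19% of all genes were called, in either direction. With all 3 groups in one fit limma called Ifitm3 (adjusted p = 0.0315) and Ifit3 (0.0434), beside 3.03% of all genes. Isg15 (0.10 ± 0.26), Oas3 and Bst2 differed by less than their SE.

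**Figure D5:**
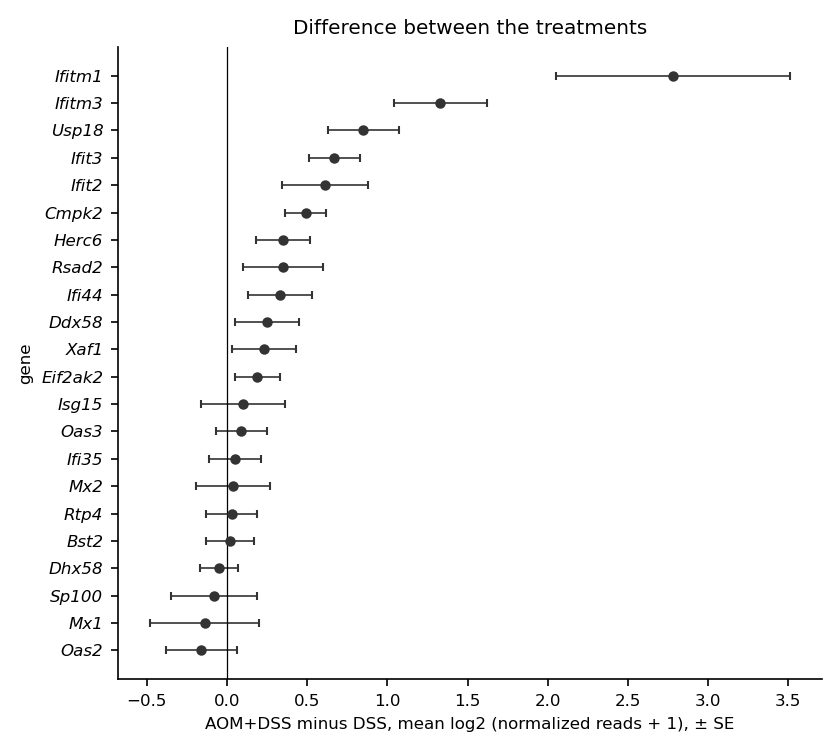
Difference in mean log2(normalized reads + 1), AOM+DSS minus DSS (x axis), for the 22 genes with resolved DSS libraries (y axis), with bars of 1 SE from limma. Ifitm1 at 2.78 and Ifitm3 at 1.33 lie farthest right, and none of the 22 passed an adjusted p of 0.05.

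Few reads of the interferon genes themselves were detected at this depth. Of 19 in the tables, Ifnb1, Ifnz, Ifnab and all Ifna genes had 0 counted reads in every library. Here too, how reads matching several places were counted is not known. Ifnl2 had 1 read in AOM+DSS a, Ifnl3 1 read in DSS a, Ifne 2 reads in AOM+DSS b, and Ifnk 1 read in control and 4 in AOM+DSS. Ifng had 2.90, 7.90 and 1.06 normalized reads in controls, 8.69, 12.4, 1.42 and 3.10 in DSS and 22.3, 21.5 and 13.3 in AOM+DSS, so AOM+DSS lay above the rest. DESeq called 0 of the 3 tested in DSS and 0 of the 4 tested in AOM+DSS in the authors' deposited tables, with none at an unadjusted p under 0.05; Ifng had adjusted p = 0.986 and 0.331 there, and limma called it in AOM+DSS. The 6 markers of plasmacytoid dendritic cells, a main source of type I interferon, summed to 894 to 1355 normalized reads in controls, 1436 to 2975 in DSS and 1622 to 2200.2 in AOM+DSS. These markers were Siglech, Ccr9, Tcf4, Bcl11a, Spib and Cox6a2. Their log2 fold change in the authors' deposited tables was above 0 for 6 of 6 in DSS and for 4 of 6 in AOM+DSS. The authors' deposited tables called 1 of 6 higher in each comparison, where 2.61% of all genes were called higher in DSS and 5.54% in AOM+DSS. The highest sum (2975) was that of DSS a, which also had the largest B and plasma cell sum (11807). The part of other cells in these sums was not tested.

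Of 15 receptor and signalling genes in the authors' deposited tables, 3 rose in DSS and 4 in AOM+DSS, where 2.61% and 5.54% of all genes were called higher. None fell, and the authors' median log2 fold change was 0.31 and 0.35. By limma, 2 of 10 and 7 of 15 were called higher, where it called 3.48% and 12.2% of all genes higher. The feedback inhibitors Socs1 and Socs3 rose in both, Socs1 by 3.24-fold (adjusted p = 0.00179) and 3.62-fold (8.11e-05) and Socs3 by 2.10-fold (0.0395) and 2.87-fold (0.000652) in those tables of the authors. Stat3 passed in AOM+DSS, and the receptor chain Ifnar2 was 2.05-fold and 3.14-fold and passed in neither (adjusted p = 0.319 and 0.0541) in the authors' deposited tables. Of 16 sensing and relay genes 2 rose in DSS, Zbp1 and Traf3, and 2 in AOM+DSS, Zbp1 and Tmem173 (STING), with medians of 0.30 and 0.38, in the authors' deposited tables, beside the same 2.61% and 5.54% of all genes. The limma fit called 0 of 14 in DSS and 6 of 16 higher in AOM+DSS, beside 3.48% and 12.2% of all genes. In DSS 4 of 14 had an unadjusted limma p under 0.05, as did 3354 of all 14082 genes.

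Of 50 further interferon-stimulated genes tested, 22 rose in DSS and 22 in AOM+DSS, where Isg20 fell, with medians of 0.91 and 1.11 in the authors' deposited tables. The background over all genes was again 2.61% higher and 1.78% lower in DSS, and 5.54% higher and 3.35% lower in AOM+DSS. Ifi47, a GTPase, was 7.34-fold (adjusted p = 2.58e-17) and 11.4-fold (1.74e-24), and Slfn5 12.5-fold (8.23e-12) and 19.8-fold (1.56e-14) over control in those tables of the authors. Lgals9, Lgals3bp and the peptide transporter Tap1 passed in both too. Against the same background, of 15 interferon-gamma targets 9 rose in DSS and 14 in AOM+DSS, with medians of 1.97 and 2.79 in the authors' deposited tables. Gbp3 was 3.56-fold (adjusted p = 3.85e-08) and 7.33-fold (1.12e-18) and Igtp 3.92-fold (5.19e-09) and 7.35-fold (4.26e-18) per the authors' deposited tables, and Irgm1, Irgm2 and Gbp7 also passed in both. For AOM+DSS against DSS, limma called 3 of 13 of these targets higher, Gbp3, Ido1 and Iigp1, where it called 2.28% of all genes higher. In AOM+DSS 6 of 9 myeloid markers were called higher in the authors' deposited table (5.54% of all genes), and 1 of 9 in DSS (2.61%); whether such cells carry part of these reads was not tested.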

How the data were processed

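Poly(A)-selected RNA of distal colon crypts was sequenced from 3 control, 4 DSS and 3 AOM+DSS samples with the TruSeq version 2 kit, which does not mark strand. The authors mapped reads with TopHat2 2.0 to mm9 and compared groups with DESeq, per the submitters' processing notes, which name no read counter, annotation or DESeq version. Each deposited table holds, per the file headers, mean normalized counts per group (a signal: counts divided by size factors), the fold ratio, its log2 value, and DESeq p-values with their adjusted values. The header of the AOM+DSS table names 4 replicates, while the labels list 3 and the printed means fit 3 libraries. Both tables give the control means, and calls are the authors' adjusted p under 0.05.

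From the authors' means, read with 15 significant digits, whole reads per library were recovered by a lattice search for size factors and counts that print the same means. All 12904 control, 6501 DSS and 13656 AOM+DSS means compared were reproduced. Tested on simulated libraries, the search resolved 99.3%, 93.3% and 99.9% of genes in control, DSS and AOM+DSS with 0 wrong, and in DSS the choice within 2-fold took 856 of 1576 with 5 wrong. The simulated spread was set much alike for all highly expressed genes. Some DSS genes, such as Sp100, were less even, and for such genes the choice could be wrong more often. Size factors ran from 0.645 to 1.34. Depth is known only for the recovered share of reads, which limits DSS most. limma 3.58.1 in R 4.3.3 (trend, pseudocount 1, mean of at least 1, the 2 groups compared) tested the recovered values across all genes with Benjamini-Hochberg adjustment. On simulated data of 200 changed genes it recovered 61%, 59% and 69% of 2-fold changes for DSS against control, AOM+DSS against control and AOM+DSS against DSS, and 100% of 4-fold ones. All genes were given the same spread there, so these shares need not hold for genes that vary more. The authors' test could not be repeated without a library. Exon lengths came from GENCODE M21 and promoters from RefSeq GRCm38.p6, both linked to the mm9 tables by symbol only.

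The 36 members and all lists were chosen with earlier results of these data known. Per library values are given for up to 3 members of each role with the smallest adjusted p, for members called in 1 comparison, and for Isg15, Oas1a and Sp100, chosen after their values were seen; other lists name up to 5, and 1 gene of the signalling list is not reported here. Alternatives covered thresholds, pseudocounts, filters, scaling, the groups in the fit, and each library left out.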

Additional observations from a re-analysis of the deposited data

How the results depend on the processing

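The counts of members called from the authors' test stayed at 26 or 27 in DSS and 28 to 31 in AOM+DSS at thresholds of 0.01 and 0.1 and after adjusting over genes with a mean of at least 10. Leaving out each library in turn, limma called 12 to 19 of 22 members in DSS, 27 to 34 of 36 in AOM+DSS, and 0 to 1 of 22 between the treatments. Beside these, 1.19% to 8.18%, 3.47% to 27.9% and 0.473% to 4.19% of all genes were called, in either direction. In DSS the count was 12 without control a and 12 without control c, where Cmpk2, Ddx58, Herc6, Ifi35, Rsad2 and Xaf1 were lost. The share of all genes called there was 1.19% and 1.54%, against 6.56% with every library. With all 3 groups in one fit limma called 20 of the 22 members that could then be tested in AOM+DSS against control, and 2 between the treatments, Ifitm3 (adjusted p = 0.0315) and Ifit3 (0.0434). Of all genes, 16.7% and 3.03% were called in these comparisons, in either direction. Without DSS libraries a and b together, an alternative chosen after seeing the data, limma called 3 of 22 members between the treatments, where it called 12% of all genes. These were Ifitm1 (log2 difference 3.75, adjusted p = 0.0160) and Cmpk2 (0.55, 0.0443), higher in AOM+DSS, and Mx1, lower (-0.68, 0.0264). The count for the members is thus near the share of all genes. Without c and d together limma called 0 of 22, where it called 0.367% of all genes. The cause was not tested. By limma, 5 values that missed the authors' threshold passed: Irf1, Ifih1 and Sp100 in AOM+DSS and Ifitm3 and Ifi35 in DSS. The promoter share was 32.1% of members with a stricter form of the core, lengthened by any base and T (0.958% of all genes), and 100% with the half-site of GAAA and any 2 bases (90.4% of all genes). No paired analysis was possible because the tables hold group means and the recovered libraries carry no replicate number. In DSS 14 members had no unique set of reads. The 7 of them taken within 2-fold of the mean were added in a further alternative, also chosen after seeing the data. With these, limma called 24 of 29 in DSS against control (6.87% of all genes in either direction) and 0 of 29 between the treatments (1.94%). The choice within 2-fold limits the spread within DSS beforehand, so this fit cannot test these 7 on their own spread.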
